A study of Sus scrofa with 30 samples.

Results

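KRT12, SLIT3 and LOC110260364 are 3 of the 13103 genes of the table of all embryos, and each had many reads in some single pig embryos and next to none in others of the same day. They were chosen by their counts in these embryos, so the on and off states, the number of embryos on per day and their co-occurrence are given as a description with no test. A gene was called on in an embryo at more than 3 counts and off at 3 counts or fewer. The question was how cleanly each gene separates embryos, whether the states go together, and whether they differ between days, between sexes or with neighbouring genes.

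RNA-seq libraries were made from 30 single embryos, 5 of each sex at each of 3 days of pregnancy (8, 10 and 12), and an embryo is named here by its label, which gives day, sex (f or m) and number. The embryos came from 12 German Landrace × Pietrain crossbred gilts, 4 slaughtered on each day, whose cycles had been synchronized with altrenogest and gonadotropins, and 1 Pietrain boar sired every embryo. Each embryo was taken whole, with embryonic disc and trophectoderm, was untreated apart from its dam's hormones, and was sexed by qPCR of SRY on its own DNA. With 4 gilts for the 10 embryos of a day, littermates are among them, and female and male embryos were chosen from the same gilts, but the labels do not give the gilt of an embryo. Litter and embryo cannot be told apart, and p-values measure the spread between embryos that are not all of separate litters.

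KRT12 encodes a type I keratin, an acidic filament protein that pairs with a basic type II keratin and is known from the epithelium of the cornea. SLIT3 encodes a secreted guidance protein that binds ROBO receptors on nearby cells and steers cell movement. LOC110260364 is annotated in RefSeq as a transcribed pseudogene and lies in the region of AMY2, a gene for the starch-digesting enzyme amylase. Each was read from whole embryos, so fewer cells of a type and less RNA per cell cannot be told apart.

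In RefSeq's annotation of the Sscrofa11.1 build, which the files use, KRT12 (gene 100520150) lies on chromosome 12 from 21600163 to 21607268 and is protein coding. SLIT3 (gene 100513444), also protein coding, lies on chromosome 16 from 54551536 to 55221427. LOC110260364 (gene 110260364) lies on chromosome 4 from 115237163 to 115239112.

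Total counts ran from 6068212 in d12_f_245 to 34002508 in d12_m_286. At 3 counts, the level was between 0.0823 and 0.434 CPM (counts scaled to a common library size with TMM factors) over the 30 libraries, so a count of 0 allows up to that level, by counting error alone. Trophectoderm was checked with 8 markers, KRT8 and KRT18 among them, which summed to between 8569 and 50078 CPM. On Day 8 the sum was 20619 to 25248 CPM, and KRT8 and KRT18 alone had means of 12248 and 10075 CPM. The sum is thus mostly these keratins and says little about the other trophectoderm markers. No boar sperm marker of 3 listed was in the table. These markers cannot show that the embryonic disc was in the sample. The 4 epiblast markers summed to 128.7 to 201.2, 105.7 to 169.0 and 11.7 to 152.9 CPM on Days 8, 10 and 12. EOMES, the only mesoderm marker in the table, was at 1.71 to 3.95, 0.684 to 3.65 and 0 to 0.0774 CPM on those days. Whether each embryo held its disc was not tested. The sex labels were checked with the Y-linked gene EIF1AY, which was on in 15 of 15 male and 0 of 15 female embryos, at 1 count or fewer in the females.

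KRT12 was on in 19 of the 30 embryos, of which 7 were of Day 8, 7 of Day 10 and 5 of Day 12. On Day 8 its counts were 0, 328, 0, 427 and 0 in d08_f_105, d08_f_109, d08_f_124, d08_f_129 and d08_f_130, and 595, 549, 469, 392 and 601 in d08_m_103, d08_m_111, d08_m_121, d08_m_133 and d08_m_136. All 5 males were thus on, with counts close together, while the females were split with nothing between 0 and 328 counts. On Day 10 the counts were 0, 814, 1465, 718 and 1 in d10_f_315, d10_f_317, d10_f_336, d10_f_433 and d10_f_454, and 1478, 1163, 2027, 0 and 1722 in d10_m_318, d10_m_321, d10_m_333, d10_m_435 and d10_m_453. Both sexes then held off embryos, 2 females and 1 male. On Day 12 the counts were 0, 492, 1, 2746 and 0 in d12_f_245, d12_f_271, d12_f_289, d12_f_297 and d12_f_299, and 1947, 147, 1, 2 and 1291 in d12_m_249, d12_m_275, d12_m_276, d12_m_286 and d12_m_307. The highest count of all, 2746, and counts of 0 fell in female embryos of the same day.

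No embryo had between 4 and 30 counts of KRT12. The highest off embryo had 2 counts (d12_m_286) and the lowest on embryo had 147 (d12_m_275), and 7 of the 11 off embryos had none. In CPM, the lowest on level stood 103.3-fold above the highest off level. Among the on embryos of Day 8 the level ran from 16.3 to 30.3 CPM, a range of 1.86-fold, on Day 10 from 32.6 to 75.0 CPM, and on Day 12 from 6.01 to 92.5 CPM, a range of 15.4-fold. The mean over all 10 embryos of a day was 15.04 ± 11.05 CPM (SD, n = 10) on Day 8, 40.2 ± 30.5 on Day 10 and 26.3 ± 36.9 on Day 12. These SDs hold the split between on and off embryos and the days were not tested, so the means do not settle whether the level differs by day. The on embryos of Day 8, at 30.3 CPM or less, all lay below those of Day 10, at 32.6 CPM or more. Over all 10 embryos of a day the ranges overlapped, at 0 to 30.3 CPM on Day 8 and 0 to 75.0 CPM on Day 10. How many of all genes separate these days in this way was not counted, so this is a description only.

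**Figure D1:**
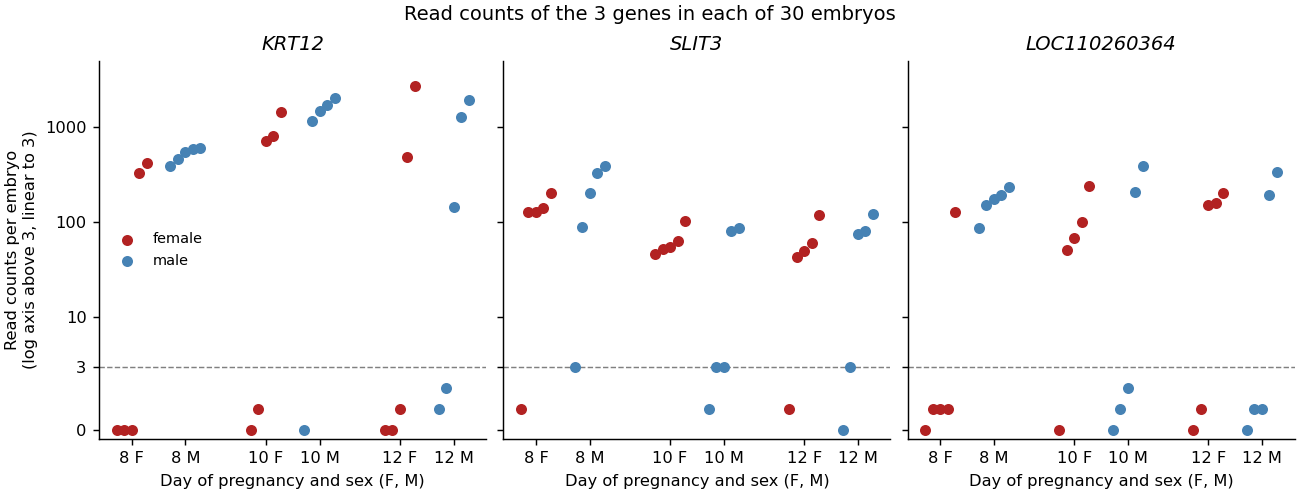
Read counts of KRT12, SLIT3 and LOC110260364 in each of 30 embryos (vertical axis linear up to 3 counts and on a log scale above), by day of pregnancy and sex, 5 embryos a group, with female embryos in red and male embryos in blue. The dashed line marks 3 counts, and no point lies between 3 counts and the lowest on embryo, at 147, 43 and 51 counts.

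SLIT3 was on in 22 of the 30 embryos, of which 8 were of Day 8, 7 of Day 10 and 7 of Day 12. Its level on Day 8 was 6.01, 0.0519, 4.42, 6.81 and 13.1 CPM in d08_f_105, d08_f_109, d08_f_124, d08_f_129 and d08_f_130, and 10.8, 7.98, 5.82, 0.155 and 12.2 CPM in d08_m_103, d08_m_111, d08_m_121, d08_m_133 and d08_m_136. A single female (1 count) and a single male (3 counts) stood apart from their groups. On Day 10 the level was 3.62, 3.002, 2.36, 2.09 and 5.30 CPM in d10_f_315, d10_f_317, d10_f_336, d10_f_433 and d10_f_454, and 0.147, 0.130, 0.0370, 3.74 and 3.14 CPM in d10_m_318, d10_m_321, d10_m_333, d10_m_435 and d10_m_453. The 5 females were on and 3 of the 5 males were off, at 3, 3 and 1 counts. On Day 12 the level was 6.22, 3.001, 0.0538, 3.71 and 3.59 CPM in d12_f_245, d12_f_271, d12_f_289, d12_f_297 and d12_f_299, and 5.85, 3.06, 0, 2.38 and 0.116 CPM in d12_m_249, d12_m_275, d12_m_276, d12_m_286 and d12_m_307. The off embryos had 1, 0 and 3 counts, and the smallest library, d12_f_245, had 43 counts and the highest level of the day.

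SLIT3 had a narrower gap than KRT12. Of its 8 off embryos, 4 had exactly 3 counts, the most an off embryo can have, and 1 had none. The lowest on embryo had 43. In CPM, the lowest on level (2.09) was 13.5-fold above the highest off level (0.155). Among the on embryos the level ran from 4.42 to 13.1 CPM on Day 8, from 2.09 to 5.30 CPM on Day 10 and from 2.38 to 6.22 CPM on Day 12. The mean over all 10 embryos was 6.73 ± 4.51 CPM (SD, n = 10) on Day 8, 2.80 ± 2.24 on Day 12 and 2.36 ± 1.78 on Day 10. Here too the SDs hold the split between on and off embryos, and the days were not tested. The range of the on embryos of Day 8 overlapped those of Days 10 and 12.

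LOC110260364 was on in 17 of the 30 embryos, of which 6 were of Day 8, 6 of Day 10 and 5 of Day 12. On Day 8 its counts were 0, 130, 1, 1 and 1 in d08_f_105, d08_f_109, d08_f_124, d08_f_129 and d08_f_130, and 234, 87, 153, 178 and 195 in d08_m_103, d08_m_111, d08_m_121, d08_m_133 and d08_m_136. Only d08_f_109 among the females of that day was on, and its 130 counts lay within the range of the males. On Day 10 the counts were 102, 0, 242, 69 and 51 in d10_f_315, d10_f_317, d10_f_336, d10_f_433 and d10_f_454, and 2, 1, 207, 0 and 390 in d10_m_318, d10_m_321, d10_m_333, d10_m_435 and d10_m_453. Now 4 of 5 females and 2 of 5 males were on. On Day 12 the counts were 1, 162, 0, 154 and 204 in d12_f_245, d12_f_271, d12_f_289, d12_f_297 and d12_f_299, and 194, 0, 1, 339 and 1 in d12_m_249, d12_m_275, d12_m_276, d12_m_286 and d12_m_307. Both sexes held on and off embryos.

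The highest off embryo of LOC110260364 had 2 counts (d10_m_318) and the lowest on embryo 51 (d10_f_454). In CPM the lowest on level stood 18.1-fold above the highest off level, and 5 of the 13 off embryos had no read. The on embryos ran from 3.43 to 9.90 CPM on Day 8, from 2.62 to 14.1 CPM on Day 10 and from 4.76 to 12.0 CPM on Day 12. Over all 10 embryos the mean was 4.58 ± 5.10, 4.42 ± 5.03 and 4.31 ± 4.05 CPM (SD, n = 10) for Days 12, 10 and 8. The 3 means lay close together, with SDs that hold the split between on and off embryos.

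The off embryos of KRT12 included both the smallest and the largest library, of 6068212 and 34002508 counts. At the lowest on level of each gene, the smallest library would hold 41.5 counts of KRT12, 14.4 of SLIT3 and 18.1 of LOC110260364, all above 3. With every library thinned to 6068212 counts, or with a threshold of 10 counts or 0.5 CPM, the number of on embryos on each day was the same for each of the 3 genes. Both thresholds lie in the gap between off and on embryos, so their outcome was fixed by the counts above. Thinning cannot turn an off embryo on, and the fewest counts an on embryo kept were 9 (LOC110260364 in d10_f_454). Its outcome was thus all but fixed too. No threshold lower than 3 counts was tried, and 4 of the 8 off embryos of SLIT3 had exactly 3.

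The 3 states did not go together as one. All 3 genes were on in 10 embryos (4, 3 and 3 of the 3 days in turn), and none was on in d12_f_289 and d12_m_276. Of the other 18 embryos, 3 had KRT12 and SLIT3 on, 3 had KRT12 and LOC110260364 on, 4 had SLIT3 and LOC110260364 on, 3 had only KRT12 on and 5 had only SLIT3 on. No embryo had LOC110260364 as the only gene on.

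KRT12 and LOC110260364 were in the same state in 20 of 30 embryos, SLIT3 and LOC110260364 in 19 and KRT12 and SLIT3 in 15. KRT12 and LOC110260364 shared their state in 9 of 10 embryos on Day 8, d08_f_129 being the exception, and in 5 and 6 of 10 on the later days. SLIT3 and LOC110260364 shared theirs in 4, 7 and 8 of 10 embryos on the 3 days in turn. KRT12 and SLIT3 shared their state in 5, 4 and 6 of 10 embryos on Days 8, 10 and 12. Since the pairs share embryos, and embryos share litters, these counts are a description only.

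**Figure D2:**
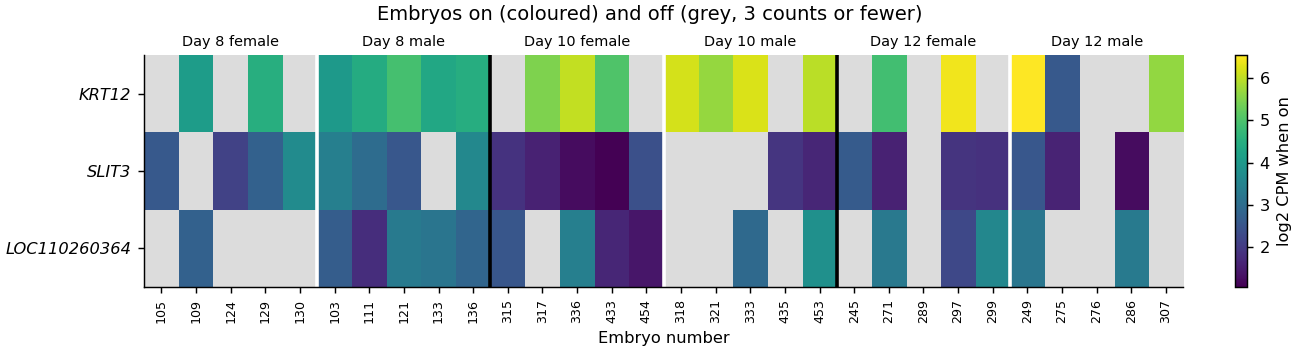
On and off states of the 3 genes in 30 embryos, ordered by day, sex and embryo number. Grey cells are off (3 counts or fewer) and the colour of on cells gives log2 CPM, so the columns with 3 coloured cells are the 10 embryos with all 3 genes on and the 2 grey columns are d12_f_289 and d12_m_276.

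By sex, KRT12 was on in 7 of 15 females and 12 of 15 males, SLIT3 in 13 of 15 and 9 of 15, and LOC110260364 in 8 of 15 and 9 of 15. The rule that picked the genes did not use sex, so each day's female and male embryos were compared by the edgeR quasi-likelihood test over all genes of that day's table, with Benjamini-Hochberg adjustment (FDR under 0.05). None of the 3 genes was called on any day by this test. The background was 0.658% of the 11405 genes tested for Day 8, 0.223% of the 11675 for Day 10 and 0.123% of the 12220 for Day 12. At an unadjusted p under 0.05 none of the 3 passed in this test either, while 4.59, 2.36 and 22.7% of the genes of the 3 tables did. The tests have 5 embryos a group, so an uncalled gene is not shown to be alike in both sexes.

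On Day 8, LOC110260364 was at 1.38 ± 3.001 CPM (SD, n = 5) over the females and 7.23 ± 2.55 CPM (n = 5) over the males. The log2 fold change, female over male, was −2.41 (SE 1.15, edgeR FDR 0.999). That value rested on 1 embryo: without d08_f_109, the only Day 8 female on, it was −7.52 with an edgeR FDR of 1.35e-05. With all 10 embryos, DESeq2 gave −2.39 (SE 1.51, unadjusted p 0.113). The robust GLM of edgeR, which gives outlying embryos less weight, gave −7.06 with an FDR of 3.08e-42. It called 156 of the 11405 genes of Day 8. The paper names a robust GLM of edgeR for its own calls, so the quasi-likelihood test used here is a different one. The weight of d08_f_109 in the robust fit was not examined, so the robust value is not taken as separate from the one without that embryo. KRT12 on Day 8 was at 7.91 ± 11.01 CPM over the females and 22.2 ± 5.12 CPM over the males (n = 5 each), a log2 fold change of −1.50 (SE 1.23, edgeR FDR 0.999), and no left-out embryo led to a call. SLIT3 differed by −0.31 (SE 0.88, edgeR FDR 0.999).

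**Figure D3:**
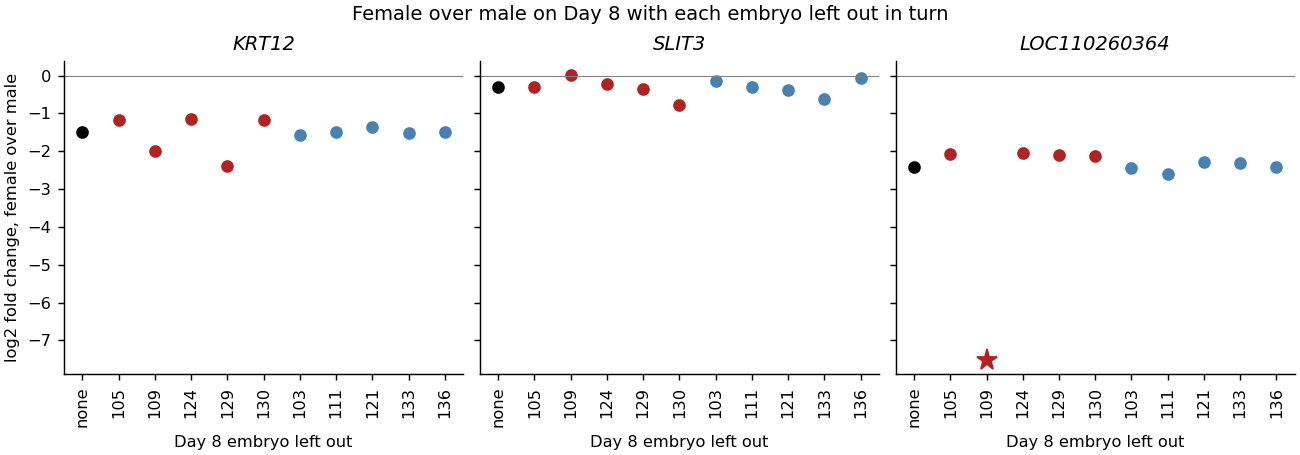
log2 fold change, female over male, on Day 8 from the edgeR quasi-likelihood test with all 10 embryos (black) and with each embryo left out in turn (red for a female, blue for a male embryo), for the 3 genes. A star marks an FDR under 0.05, reached only by LOC110260364 without d08_f_109, at −7.52.

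On Day 10, SLIT3 was at 3.27 ± 1.28 CPM over the females and 1.44 ± 1.84 CPM over the males (SD, n = 5 each), a log2 fold change of 1.16 (SE 0.93, edgeR FDR close to 1). The robust GLM of edgeR gave 2.37 (unadjusted p 0.00236, FDR 0.359), and without d10_m_435 the quasi-likelihood test gave 1.86 (unadjusted p 0.0843). KRT12 was at 28.5 ± 28.5 CPM over the females and 52.0 ± 30.6 CPM over the males. LOC110260364 was at 4.46 ± 4.08 and 4.38 ± 6.35 CPM, with no direction that held across settings. On Day 12 the female over male log2 fold changes were −0.34 (SE 1.78) for KRT12, 0.56 (SE 1.12) for SLIT3 and 0.53 (SE 1.52) for LOC110260364. In all 9 comparisons of a gene and a day, the ranges of the sexes overlapped.

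Genes that split a day in this way were rare in the table. With at least 2 embryos at 3 counts or fewer and at least 2 above 30, 58 genes (0.443% of 13103) split Day 8, 0.832% split Day 10 and 138 genes (1.05%) split Day 12. The 3 genes met this on every day, as their choice implies. In all, 18 genes did so on every day, of which 11 are Y-linked. Of these 11, 6 were on in males alone and 5 were also on in 1 to 3 females, and all were on in 15 of 15 males. The 7 others are KRT12, SLIT3, LOC110260364 and 4 genes annotated as pseudogenes, named here after their values were seen. LOC110260815 on chromosome 5 was on in 15 of 15 males and 0 of 15 females. LOC100522323 (chromosome 6) was on in 20 embryos, LOC106507505 (chromosome 5) in 16 and LOC110257607 (chromosome 18) in 16, and these had 2, 6 and 5 embryos with between 4 and 30 counts, where the 3 genes had none. With at least 2 embryos above 100 counts required on every day, 12 genes remained, with KRT12 and LOC110260364 but without SLIT3, which had 1 such embryo on Day 10. With no embryo between 3 and 30 counts allowed on any day, 9 genes remained, 5 of them Y-linked, and the others were KRT12, SLIT3, LOC110260364 and LOC110260815. Of the 13103 genes, 11093 (84.7%) were on in all 30 embryos.

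The genes most like each of the 3 were ranked by the number of embryos in the same state, with ties set by the mean absolute difference of centred log2 CPM. For KRT12, LOC100522323 and the lncRNA LOC106509330 shared its state in 25 of 30 embryos, and TMEM158, TMEM196 and LPCAT2 in 24. A gene on in every embryo shares 19, and 567 genes shared more than that. For SLIT3, STEAP1, CREB3L3, ETV1 and IFI35 shared 24 of 30, against 22 for a gene on in every embryo, and 113 genes shared more than 22. For LOC110260364, KRT33A shared 23 of 30 and LOC100516036, KRT31, LOC110256866 and LOC106504658 shared 22. A gene on in every embryo shares 17, and 645 genes shared more than that. KRT33A, LOC100516036 and KRT31 lie in the same keratin cluster. LOC100516036 and KRT31 had the same lowest, median and highest counts (0, 5.5 and 31), so they cannot be taken as separate matches. LOC100522323 had a median of 44 counts, and the other genes named here had medians of 5 to 31 counts. None of these genes was among the 5 nearest at a threshold of 10 counts.

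The genes beside the 3 were on throughout or followed another pattern. KRT12 lies in the type I keratin cluster, where 14 of 56 other genes annotated within 500000 bases were in the table and none shared its state in more than 19 embryos. KRT10, a keratin of differentiated epidermis and the nearest on one side, was on in all 30 embryos at 24 to 196 counts. KRT33A, a hair keratin and the nearest in the table on the other side, had 0 to 41 counts and shared the state of KRT12 in 19 of 30. SLIT3 lies between SPDL1, a kinetochore protein gene, with 54 to 1518 counts, and PANK3, a pantothenate kinase gene of coenzyme A synthesis, with 448 to 5734 counts. Both were on in all 30 embryos, also in the 8 in which SLIT3 was off.

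The 1950 bases of LOC110260364 lie wholly inside the 49435 bases of LOC100521789, a protein coding gene that overlaps AMY2 by 3745 bases and the transcribed pseudogene LOC100522672 by 3727. These 3 loci were on in all 30 embryos. AMY2 had 274 to 4922 counts, LOC100521789 had 242 to 4311 and LOC100522672 had 87 to 2465. They moved together from embryo to embryo, with the counts of LOC100521789 at 61.4 to 93.5% and those of LOC100522672 at 31.8 to 61.5% of those of AMY2. LOC110260364 kept no such ratio: its counts were 2.73 to 19.2% of those of LOC100521789 in the 17 embryos above 3 counts and at most 0.413% in the other 13. How reads in overlapping or near-identical genes were counted is not given in the sources used here, so the reads of these loci cannot be told apart with certainty.

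**Figure D4:**
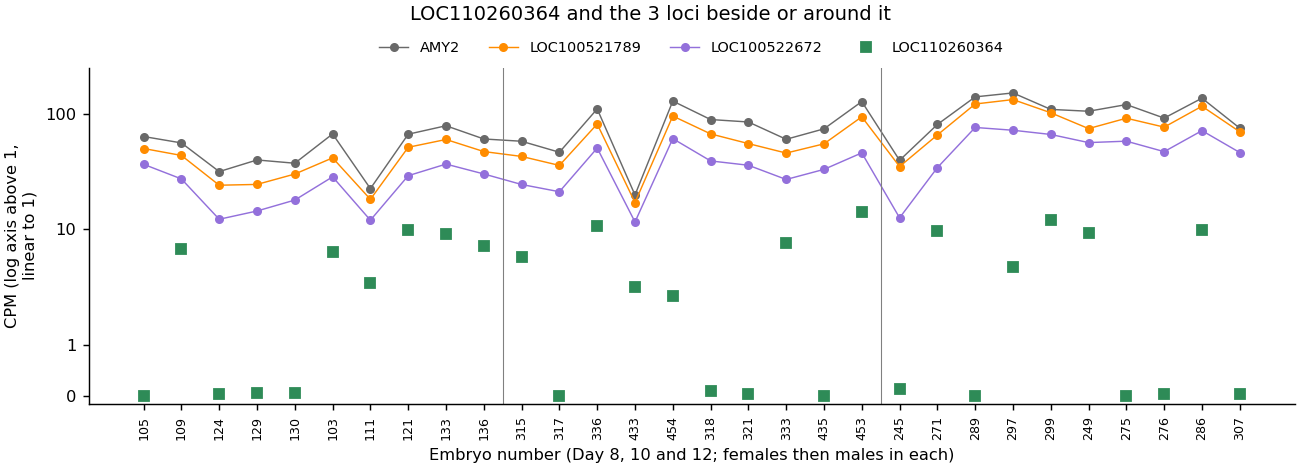
CPM of LOC110260364 (green squares), of AMY2, of LOC100521789 and of LOC100522672 (lines) in 30 embryos in order of day, sex and number, with the vertical axis linear up to 1 CPM and on a log scale above. The 3 lines run in parallel and stay above 10 CPM, while LOC110260364 is above 2 CPM in 17 embryos and near 0 in 13.

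Lists of 43 SLIT and ROBO pathway, 45 keratin and corneal and 41 amylase and digestive genes were followed between days, of which 61 were in the table. The last list was chosen by the place of LOC110260364 near AMY2. No function in digestion is known for LOC110260364 from the sources used here. Days were compared with the edgeR quasi-likelihood test (a call needed an FDR under 0.001 together with a change of more than 1 on the log2 scale). Of all 13103 genes, 9.88% were higher and 4.20% lower on Day 10 than on Day 8, and 14.9% were higher and 8.39% lower on Day 12 than on Day 10. Scaled by library size alone, the numbers called moved from 1295 higher and 550 lower to 1027 and 811 on Day 10 over Day 8, and the median of all genes from 0.03 to −0.15 (log2). On Day 12 over Day 10 they moved from 1951 and 1099 to 2396 and 891, and the median from 0.04 to 0.24.

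Of 34 SLIT and ROBO pathway genes in the table, 2 were higher and 1 lower on Day 10 than on Day 8 (median log2 fold change 0.10), and 7 were higher and 2 lower on Day 12 than on Day 10 (median 0.15). SLIT2, the only other SLIT ligand in the table, was on in 7 of 10 embryos on Days 8 and 10 and in 0 of 10 on Day 12. Its fitted log2 fold change of −4.33 (SE 0.75, edgeR FDR 9.71e-06) depends on the prior count. Its Day 10 mean of 0.729 ± 0.751 CPM (median 0.441) was 4.46-fold the mean level of 3 counts on Day 12. That bound holds for the mean and not for each embryo. ROBO1, the only ROBO receptor in the table, was at 1.98 ± 0.956, 1.73 ± 0.583 and 4.01 ± 3.57 CPM (SD, n = 10) on Days 8, 10 and 12 and was not called. UNC5B, UNC5D and NEO1, netrin receptors, rose on Day 12 by 3.49 (SE 0.24, edgeR FDR 1.52e-13), 2.69 (SE 0.47, FDR 1.32e-05) and 1.91 (SE 0.26, FDR 1.55e-07) on the log2 scale. Of the SLIT-ROBO GTPase activating proteins, SRGAP3 rose by 1.83 and SRGAP1 fell by 1.47 on Day 12, while SRGAP2 rose by 1.13 on Day 10. The heparan sulfate co-receptor SDC4 fell by 1.69 on Day 10 (edgeR FDR 3.99e-12), and the netrin NTN1 rose by 1.13. SRGAP2 and NTN1 were not called with scaling by library size alone.

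Of 17 keratin and corneal genes, 7 were higher and none lower on Day 10 than on Day 8 (median log2 fold change 1.15). On Day 12, 5 were higher and 3 lower than on Day 10 (median 0.22). With scaling by library size alone, 5 were higher on Day 10 than on Day 8. KRT8, called on Day 10 at 1.0004, was then at 0.82 and not called. The type II keratins KRT6A, KRT80 and KRT7 rose on Day 10 by 4.40 (SE 0.83), 3.10 (SE 0.56) and 2.10 (SE 0.27) on the log2 scale. KRT6A was on in 1 of 10 embryos of Day 8, so its fitted value depends on the prior count, and the robust GLM gave 5.89. KRT8 and KRT18, the keratin pair of simple epithelia, fell by 1.26 and 2.21 on Day 12, from 24502 ± 3358 to 10225 ± 3261 CPM and from 16628 ± 2277 to 3585 ± 1970 CPM (SD, n = 10). Against those levels KRT12 reached at most 92.5 CPM. TP63, a factor of stratified epithelia, was at 0.0440 ± 0.0516, 0.624 ± 0.444 and 78.6 ± 34.9 CPM on Days 8, 10 and 12 and rose at both steps, by 3.48 and 6.95 (edgeR FDR 6.29e-06 and 1.31e-16). TP63 was on in 1 of 10 embryos of Day 8, so its first value depends on the prior count. KLF5, a regulator of the corneal epithelium, fell by 1.65 on Day 12 and KLF4 rose by 1.89. The secreted proteins CLU and TGFBI rose by 3.61 and 1.51. TGFBI was low, at 0.256 ± 0.207 CPM on Day 10 (6 of 10 embryos on) and 0.750 ± 0.422 CPM on Day 12. Of 10 listed corneal regulators and markers, 8 were in the table, and PAX6 and ALDH3A1 were not. KRT3, the known partner of KRT12 in the cornea, was not among the 5 type II keratins in the table.

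Of 10 genes around amylase and digestion, 3 were higher and none lower on Day 10 than on Day 8 (median log2 fold change 0.55), and 2 were higher and 2 lower on Day 12 than on Day 10 (median −0.10). AMY2 was at 52.5 ± 18.4, 80.1 ± 35.6 and 105.3 ± 34.4 CPM (SD, n = 10) on Days 8, 10 and 12 and was not called. MGAM, an intestinal glucosidase, was on in all 10 embryos of Day 10 (10.6 ± 8.56 CPM) and in none on Days 8 and 12. Its Day 10 mean was 75.6-fold and 64.7-fold the mean level of 3 counts on those days. Single embryos of Day 10 ran from 0.591 to 26.5 CPM. The fructose carrier SLC2A5 rose by 1.53 on Day 10 and fell by 2.55 on Day 12 (by 3.18 with the robust GLM). BHLHA15, a factor of secretory cells, rose at both steps, by 2.396 and 2.07, and CELA1, an elastase, rose by 1.52 on Day 12. On Day 8 BHLHA15 was on in 5 of 10 embryos, at 0.188 ± 0.113 CPM, so its first value depends on the prior count. Only CELA1 and BHLHA15 of 23 pancreatic acinar markers were in the table, and none of 4 salivary markers.

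Markers of other cells also differed in level between the days. The 4 uterine markers in the table, of 13 listed, summed to 0.581 to 5.37 CPM on Day 8, 1.07 to 20.1 CPM on Day 10 and 10.6 to 78.9 CPM on Day 12, with PAEP and PGR not in the table. The 3 blood markers, of 9 listed, summed to at most 18.4 CPM, and the 5 hypoblast markers summed to between 641 and 1461 CPM on Day 8 and between 1219 and 6341 CPM on Day 12. The part of these cells in the day changes of the listed genes was not tested.

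**Figure D5:**
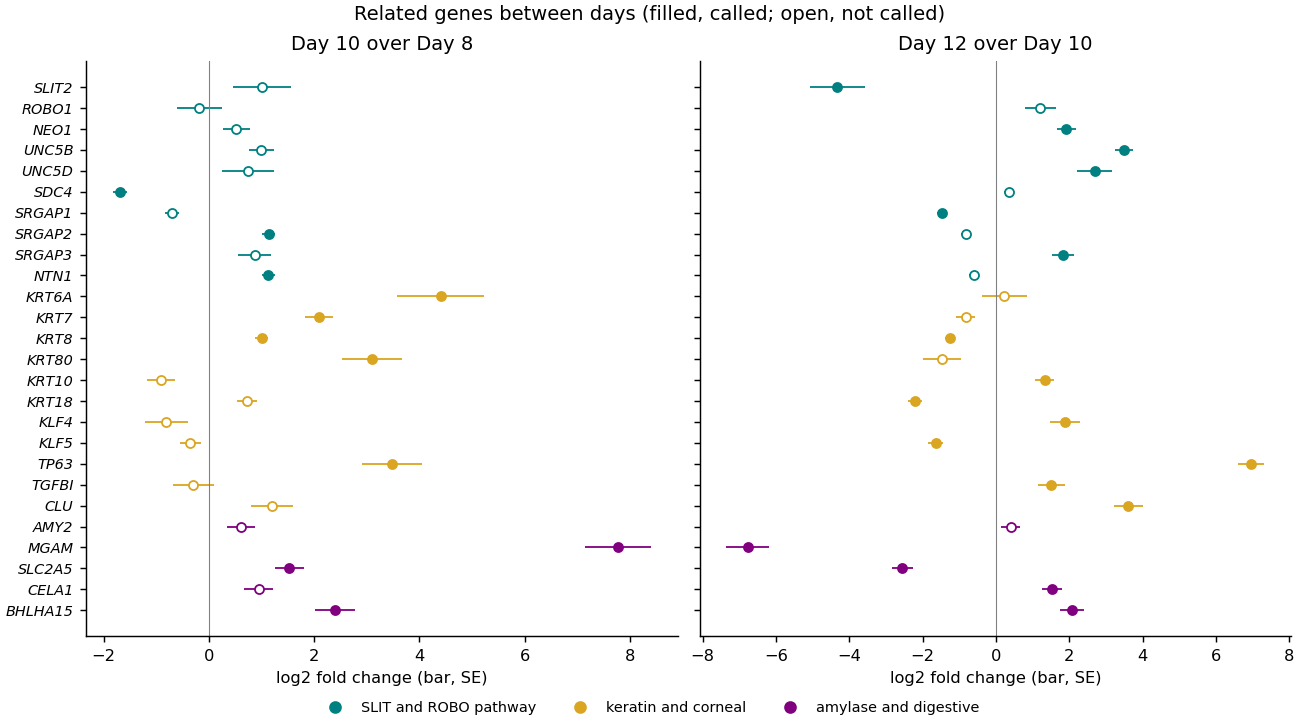
log2 fold change (points, with SE as bars) of the named SLIT and ROBO pathway, keratin and corneal, and amylase and digestive genes, for Day 10 over Day 8 (left) and Day 12 over Day 10 (right). Filled points were called by the edgeR test, with TP63 highest on Day 12 at 6.95, and the fitted values of MGAM and of SLIT2 on Day 12 are set against days with no embryo on.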

How the data were processed

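The authors trimmed reads (Trim Galore, 3 bases removed from the 5′ end), mapped 100-bp single-end reads of stranded mRNA libraries to Sus scrofa 11.1 (NCBI annotation) and filtered genes by a CPM cutoff whose value, like the aligner and counting tool, is not given in the sources used here. The deposited values are raw read counts, as a table of all embryos (13103 genes) and 1 per day; genes shared by the tables had the same counts, and the 3 genes are in all of them. Embryos with RIN above 8 had been selected. Each embryo's group comes from its labels.

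CPM used TMM factors, and log2 CPM a prior count of 2. R 4.3.3, edgeR 4.0.16 (quasi-likelihood, robust), DESeq2 1.42.0 and Python 3.11.15 were used. Alternatives were DESeq2, the robust GLM, RLE factors, library size alone, low-count filters, sex as a term and each embryo left out. The SE is the log2 fold change over the square root of F. Intervals and floors cover counting error only.

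The 3 genes, the lists and the tests were chosen with earlier results of these data known. Named genes are the 3 genes, the 5 most like each (1 gene is not reported here), their nearest genes in the table, SLIT, ROBO and amylase genes, and per list and step up to 4 called genes with the largest change in each direction. Genes described as amylase could not be searched for, since the annotation table held symbols only. No columns were left without a sample.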

Additional observations from a re-analysis of the deposited data

Results flagged for a closer look

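Of 93 groups of 10 embryos (a named gene other than the 3 on a day), 6 held an embryo apart from the rest by Dixon's test at 95%, which chance does for about 1 in 20 groups. KRT12, SLIT3 and LOC110260364 were not tested, since they were chosen by these counts. The smallest library, d12_f_245, was below the other 9 for AMY2 (39.6 CPM), LOC100521789 (35.0 CPM) and LOC100522672 (12.6 CPM). ROBO1 was low in d08_m_111 (0.355 CPM) and d10_f_433 (0.4998 CPM), and KRT6A was high in d08_f_130 (0.445 CPM).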

How the results depend on the processing

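The number of embryos on per day did not change with thinned libraries, at 10 counts or at 0.5 CPM. Nor did the number with all 3 or none on. Both of those thresholds fall in the gap between off and on embryos, so they could not move a count. Thinning cannot turn an off embryo on and left every on embryo well above 3 counts, so it was hardly a check either. No threshold lower than 3 counts was tried. Without the smallest library, chosen after seeing the data, no count moved by more than 1.5 times. With more than 100 counts for the upper embryos, 23, 26 and 33 genes split Days 8, 10 and 12, and 12 on every day without SLIT3, and with none between 3 and 30 counts 15, 18 and 14, and 9 on every day. Between sexes on Day 8, the robust GLM called 1 of the 3 genes and 156 of all 11405 genes, against 75 of all genes in the main test. With an embryo left out, 0 to 1 of the 3 genes was called, and the share of all genes is not given here. LOC110260364 on Day 10 changed sign from the main value of −0.00, to 0.010 with DESeq2, 0.38 with the robust GLM and 0.0036 with RLE factors, and ran from −0.63 to 1.16 with 1 embryo left out (above 0 without any of 5). With 1 embryo left out, SLIT3 on Day 8 ran from −0.79 to 0.0066 (without d08_f_109) and KRT12 on Day 12 from −1.92 to 0.73 (without d12_m_249). KRT6A on Day 12 over Day 10, not called, went to −1.10 with the robust GLM. Of 344 alternative values of the listed genes, 337 kept direction and call. The cause of these changes was not tested. Reads of overlapping loci and the gilt of each embryo limit the rest. No paired analysis was possible because the labels do not give the gilt of each embryo.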
